A study of Homo sapiens with 6 samples.

Results

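FTH1, FTL, NCOA4, TFRC, SLC11A2, SLC11A1, SLC40A1, IREB2, ACO1 and HMOX1, 10 genes that store, import, export, release or sense cellular iron or break down heme, were followed in THP-1 cells after knockdown (KD) of the transcription factor NFIC. They were taken by gene name, and all 10 were found among the 33981 genes of the count table and passed the low-count filter that left 19182 genes for testing. THP-1 is an established human acute monocytic leukemia line that carries the KMT2A::MLLT3 (MLL::AF9) fusion. Cells were infected with a GFP-marked lentivirus that gave scrambled shRNA (3 samples, C1, C3 and C4, here replicates 1 to 3) or 1 shRNA against NFIC (3 samples, N1 to N3), and GFP-positive cells were sorted 4 days after infection. The groups follow the sample labels; the study's supplementary methods name a GFP-only vector as the control of this experiment instead, and its text lists another control sample number in place of C3, so what the control vector held beside GFP is not certain. Every sample thus carried the line's own leukemic fusion, a lentiviral vector and GFP. No other NFIC shRNA was analysed here, so the shRNA sequence and the loss of NFIC cannot be told apart. Nothing in the labels says whether replicates came from separate cultures, so p-values measure only the spread between these samples.

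Iron enters most cells bound to transferrin through the receptor TFRC, leaves endosomes through transporters such as SLC11A2, and leaves the cell through ferroportin, the product of SLC40A1. Surplus iron is held in ferritin, a shell of heavy (FTH1) and light (FTL) chains, of which the heavy chain oxidizes iron for storage and the light chain favors its deposition in the core. NCOA4 carries ferritin to lysosomes, where the iron is freed, and HMOX1 frees iron from heme. In monocytes and macrophages, which recycle iron from red cells, this machinery is especially active. Iron supply is read by the RNA-binding proteins IRP1 (ACO1) and IRP2 (IREB2), which bind iron-responsive elements: bound in a 5′ UTR such an element holds back translation, and bound in the 3′ UTR of TFRC it stabilizes the mRNA. mRNA levels therefore give only part of the picture for ferritin and ferroportin, and protein was not measured in these samples.

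The iron-responsive elements of the members that rose with NFIC shRNA are shown because they place FTL and SLC40A1 in the translational arm of that control and TFRC in the mRNA stability arm. The search took the sense strand of GENCODE 44 transcripts (GRCh38) for a bulged C, a stem of 5 base pairs (G-T pairs allowed) and a 6-base loop of CAGTGN, and each match is printed 5′ to 3′ as DNA with its loop in capitals and 6 flanking bases on each side. The FTL element lies in the 5′ UTR at chr19:48965335-48965363 on the plus strand, and the SLC40A1 element in the 5′ UTR at chr2:189580661-189580689 on the minus strand. In TFRC this search matched 4 elements, which need not be all that it has. They lie in the 3′ UTR on the minus strand, in transcript order at chr3:196050979-196051007 (a), chr3:196050575-196050603 (b), chr3:196050510-196050538 (c) and chr3:196050463-196050491 (d).
FTL: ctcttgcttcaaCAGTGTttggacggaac
SLC40A1: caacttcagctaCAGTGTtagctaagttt
TFRC a: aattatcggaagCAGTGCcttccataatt
TFRC b: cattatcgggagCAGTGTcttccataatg
TFRC c: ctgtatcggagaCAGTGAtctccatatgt
TFRC d: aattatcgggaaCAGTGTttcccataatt
The loop ends in T in 4 of these 6 elements, in C in TFRC a and in A in TFRC c. The FTH1 5′ UTR also held 1 match. The other 6 members had none, which says only that no stretch of their UTRs fits these letters and this pairing. Matches were found in 0.102% of 19647 annotated 5′ UTRs and in 0.611% of 19959 annotated 3′ UTRs, 1 canonical transcript a gene.

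Library totals ran from 20369543 to 24809720 counts, and the floor of 3 counts lay between 0.122 and 0.145 CPM (counts scaled to a common library size with TMM factors). NFIC itself fell from 42.1, 41.4 and 42.2 CPM to 19.3, 22.3 and 21.3 CPM, or 50.1% of the scrambled mean (edgeR adjusted p = 3.73e-09). Scrambled replicate 2 and NFIC shRNA replicate 3 stood apart from the other 4 libraries on the second principal component (scores of -18.0 and -20.5 against 4.63 to 15.8), and leaving both out kept the same member counts, with 3 members higher and 2 lower. All 10 monocyte markers passed the low-count filter. Their summed level went from 1263 to 1394 CPM with scrambled shRNA to 1464 to 1683 CPM with NFIC shRNA (4 higher, 4 lower). LYZ held the largest part of that sum, with a mean of 571 CPM going to 939 CPM. ITGAM, TYROBP and CD14 also rose, while CD68 (mean 261 to 130 CPM), CSF1R (219 to 146 CPM), CD33 and MPEG1 fell. The rise of the sum thus does not describe the monocyte markers as a group. The summed level of 10 granulocyte markers went from 2251 to 2698 CPM to 1693 to 1752 CPM (1 higher and 6 lower of 7 tested, CEACAM8 and FCGR3B without an entry). ELANE alone made up most of that sum, with a mean of 2128 CPM going to 1486 CPM. The 1 that rose was CXCR2, from 16.4 to 30.5 CPM. Erythroid markers summed to 8.72 to 10.8 CPM and 7.97 to 10.7 CPM, with all globin genes on the list at 3 counts or fewer or without an entry, and lymphocyte markers to 7.47 to 7.71 CPM and 4.99 to 6.41 CPM, with CD3D, CD3E, CD3G and MS4A1 at 3 counts or fewer or without an entry. What part these shifts in marker level have in the iron genes was not tested. In bulk samples, fewer cells of a type and less RNA per cell cannot be told apart.

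Of the 10 iron and heme genes, 3 rose with NFIC shRNA (SLC40A1, TFRC and FTL), 2 fell (FTH1 and NCOA4) and 5 did not pass the test (edgeR quasi-likelihood, Benjamini-Hochberg adjusted p under 0.05 over all genes tested). The change was widespread in these libraries: 59.9% of all tested genes were called, 29.6% as higher and 30.3% as lower, so 5 called of 10 is close to that background. The groups did not overlap for 5 of the 10, against 65.2% of all tested genes. The median log2 fold change was -0.042 over the members and -0.011 over all tested genes. The members did not move as a block, and they are given below by their roles in the pathway.

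**Figure D1:**
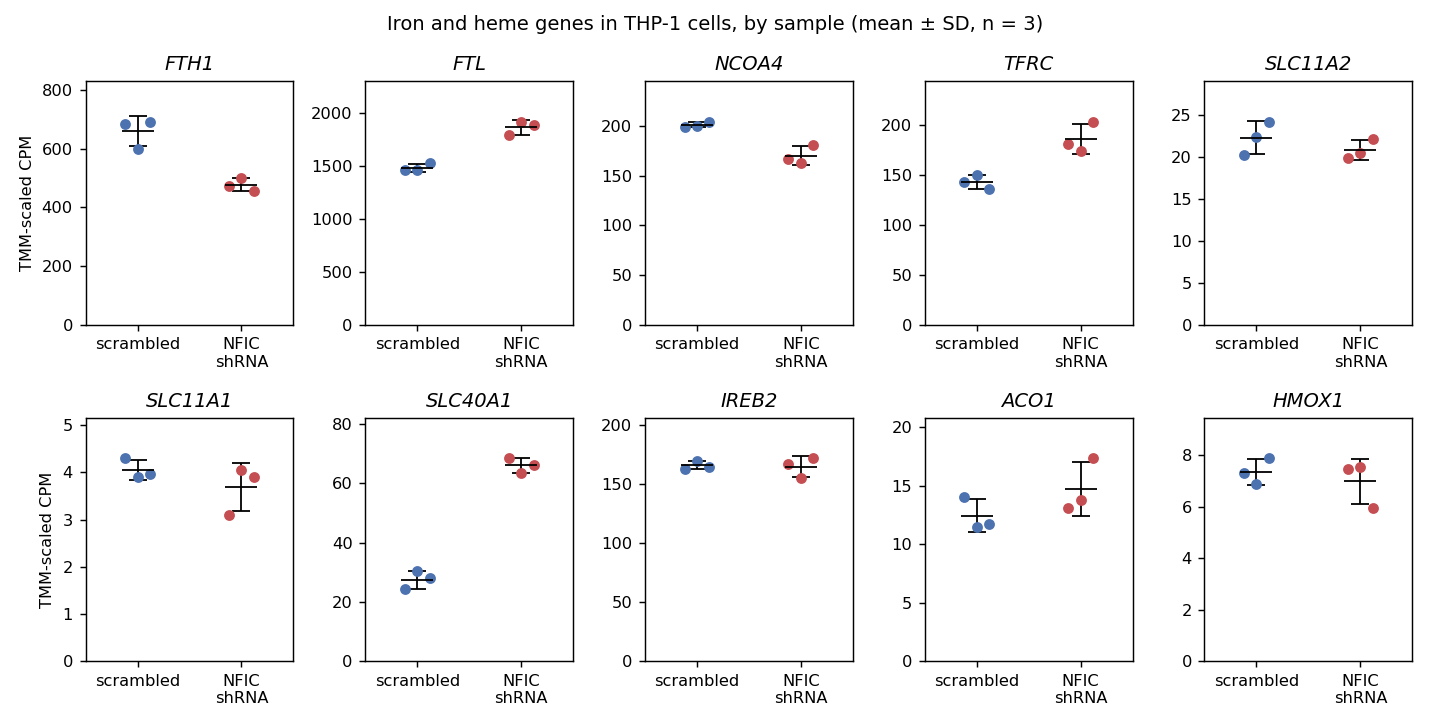
Level of each of the 10 iron and heme genes in TMM-scaled CPM (vertical axis, from 0, a separate scale for each gene) in the 3 scrambled samples (blue) and the 3 NFIC shRNA samples (red), points from left to right being replicates 1 to 3, with black bars for the mean ± SD. FTH1 and NCOA4 sit lower and FTL, TFRC and SLC40A1 higher with NFIC shRNA without overlap, and the groups overlap for the other 5.

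The 2 ferritin chains went opposite ways. FTH1 (chr11:61959718-61967634, minus strand) stood at 684, 599 and 692 CPM in the scrambled samples and at 472, 501 and 457 CPM with NFIC shRNA. Scrambled replicate 2 was the lowest control and still lay above every NFIC shRNA sample. The mean fell from 658 ± 51.2 to 477 ± 22.4 CPM (SD, n = 3), which left 72.4% of the control level, a log2 fold change of -0.47 (SE 0.059, edgeR adjusted p = 2.89e-06). FTL (chr19:48965309-48966879, plus strand) stood at 1468, 1461 and 1527 CPM in the scrambled samples and at 1792, 1922 and 1889 CPM with NFIC shRNA. All 3 NFIC shRNA samples were above all controls, and the mean rose from 1485 ± 36.6 to 1867 ± 67.7 CPM (log2 fold change 0.33, SE 0.049, edgeR adjusted p = 1.65e-05). FTL took 0.145% to 0.151% of all counts in the scrambled samples and 0.182% to 0.194% with NFIC shRNA. Both chains together went from between 0.205% and 0.220% to between 0.229% and 0.245% of all counts, so their sum was higher in every NFIC shRNA sample than in any control.

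The level and the change of FTH1 carry an uncertainty that those of FTL do not. Exons of BEST1, a chloride channel gene on the opposite strand, cover 1267 of the 2004 exon bases of FTH1 (63.2%), and 73.2% of its canonical transcript. The library kit does not mark strand in its standard form and no strand setting of the counting is stated, so reads there cannot be assigned to FTH1 or BEST1 with certainty. BEST1 counts were high, at 11160, 11556 and 11473 in the scrambled samples and 7921, 8797 and 8326 with NFIC shRNA, beside FTH1 counts of 14807, 14767 and 14827 and of 9746, 11638 and 10553. BEST1 fell by much the same amount as FTH1, with a log2 fold change of -0.44 (SE 0.055, edgeR adjusted p = 2.49e-06). Summing both genes gave 25967, 26323 and 26300 counts in the controls and 17667, 20435 and 18879 with NFIC shRNA. The summed log2 fold change was -0.45 (edgeR adjusted p = 2.25e-06), a value that had to be negative since both genes fell, and the change of FTH1 apart from BEST1 was not tested. Processed pseudogenes took few reads: 14 FTH1 pseudogenes held 33 to 49 counts a library together, at most 0.380% of the FTH1 count, and 3 FTL pseudogenes held 7 to 16.

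Because the chains moved apart, the ratio of heavy to light chain counts within each library changed more than either chain. It was 0.466, 0.410 and 0.453 in the scrambled samples and 0.264, 0.261 and 0.242 with NFIC shRNA. These values do not depend on normalization between libraries, and the groups did not overlap. The mean ratio went from 0.443 ± 0.0290 to 0.255 ± 0.0118 (SD, n = 3), a log2 difference of -0.79 (exact permutation test, two-sided p = 0.1, the smallest that 3 against 3 samples allow). Each chain already separated the groups, in opposite directions, so the separation of the ratio and this p were fixed beforehand. With counts of BEST1, which also fell, added to FTH1, the mean ratio went from 0.784 to 0.456, a log2 difference of -0.78.

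NCOA4 (chr10:46005088-46030623, minus strand), the receptor that delivers ferritin to autophagosomes, fell along with FTH1. It stood at 199.5, 201 and 205 CPM in the scrambled samples, a narrow spread, and at 167, 163 and 181 CPM with NFIC shRNA. The lowest control was above the highest NFIC shRNA sample, which was replicate 3. The mean fell from 202 ± 2.65 to 170.4 ± 9.49 CPM, leaving 84.5% of control (log2 fold change -0.24, SE 0.052, edgeR adjusted p = 6.15e-04). It was the smallest change among the 5 called members.

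Among the importers, only TFRC passed the test. TFRC (chr3:196012511-196082153, minus strand), which takes up iron-loaded transferrin and carries the 4 elements printed above, stood at 143, 149 and 135 CPM in the scrambled samples and at 181, 173 and 203 CPM with NFIC shRNA. Every NFIC shRNA sample was above every control, with replicate 3 the highest, and the mean rose from 142 ± 7.01 to 186 ± 15.5 CPM (log2 fold change 0.38, SE 0.061, edgeR adjusted p = 3.62e-05). SLC11A2 (DMT1), the iron transporter of endosomes, stood at 20.3, 22.3 and 24.2 CPM and at 19.9, 20.5 and 22.2 CPM. The groups overlapped, and its log2 fold change was -0.094 with a 95% interval from -0.27 to 0.086 (edgeR adjusted p = 0.359). SLC11A1 (NRAMP1), the metal transporter of phagosomes, was low, at 4.29, 3.90 and 3.96 CPM and at 3.10, 4.05 and 3.90 CPM. At 64 to 96 counts a library, its interval from -0.46 to 0.20 was the widest of the 10, and it did not pass the test (edgeR adjusted p = 0.484).

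TFRC and FTH1 were set against each other within each library as import over storage. The TFRC to FTH1 count ratio was 0.209, 0.249 and 0.196 in the scrambled samples and 0.383, 0.346 and 0.445 with NFIC shRNA, and the groups did not overlap. Its mean went from 0.218 ± 0.0279 to 0.391 ± 0.0498 (SD, n = 3), a log2 difference of 0.85 (exact permutation test, two-sided p = 0.1, again the smallest possible). TFRC rose and FTH1 fell without overlap between groups, so the separation of the ratio and this p were fixed beforehand. With BEST1, which also fell, added to FTH1 the difference was 0.83. TFRC and FTL both rose, so this ratio describes the heavy chain and not ferritin as a whole.

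**Figure D2:**
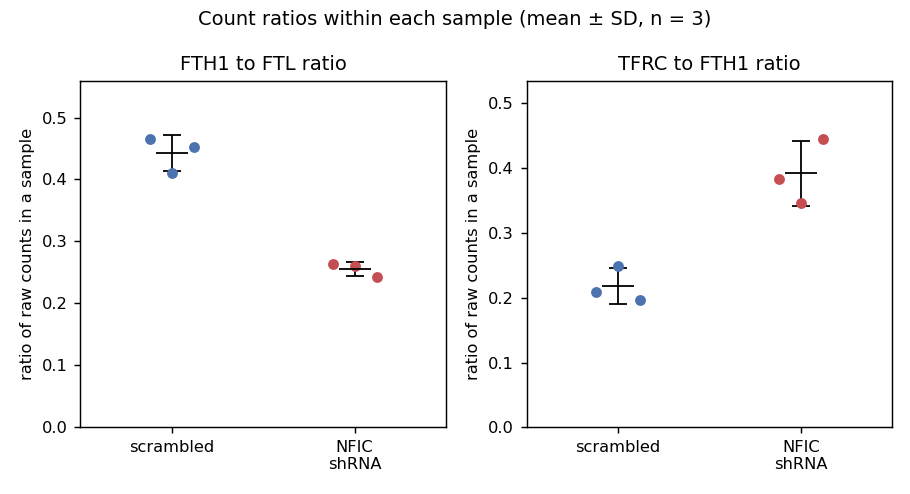
Ratio of raw counts within each sample (vertical axes, from 0) for FTH1 to FTL (left) and TFRC to FTH1 (right) in scrambled (blue) and NFIC shRNA (red) samples, points being replicates 1 to 3 and bars the mean ± SD. The 3 NFIC shRNA samples lie at 0.242 to 0.264 against 0.410 to 0.466 on the left, and at 0.346 to 0.445 against 0.196 to 0.249 on the right.

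The exporter SLC40A1 showed the largest change of the 10. Ferroportin, its product, is the main iron exporter of mammalian cells. SLC40A1 (chr2:189560590-189583758, minus strand) stood at 24.4, 30.4 and 28.0 CPM in the scrambled samples and at 68.4, 63.5 and 66.3 CPM with NFIC shRNA. All NFIC shRNA values were above 63 CPM and no control was above 31 CPM. The mean rose from 27.6 ± 3.01 to 66.1 ± 2.49 CPM, to 240% of control, with a log2 fold change of 1.26 (SE 0.075, edgeR adjusted p = 3.33e-10). Its 95% interval, from 1.10 to 1.42, did not meet that of any other member.

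Neither iron sensor passed the test. IREB2 (IRP2), which is degraded when iron is plentiful, stood at 163, 169 and 164 CPM in the scrambled samples and at 167, 155 and 171 CPM with NFIC shRNA. Its NFIC shRNA values lay on both sides of the controls, and it differed by -0.010 on the log2 scale, with a 95% interval from -0.12 to 0.099 (edgeR adjusted p = 0.876). ACO1 (IRP1), which becomes an aconitase when it holds an iron-sulfur cluster, stood at 14.0, 11.5 and 11.7 CPM and at 13.1, 13.7 and 17.3 CPM. ACO1 was highest in NFIC shRNA replicate 3, and scrambled replicate 1 was above 2 of the knockdown samples. The log2 fold change of ACO1 was 0.25 (95% interval 0.0037 to 0.49, edgeR adjusted p = 0.0743), and with scrambled replicate 2 and NFIC shRNA replicate 3 both left out it was 0.058 (adjusted p = 0.683). Without scrambled replicate 1 it was 0.34 and passed the test (adjusted p = 0.0329), as it did without NFIC shRNA replicate 1 (0.33, adjusted p = 0.0394).

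HMOX1, the inducible heme oxygenase that splits heme into iron, carbon monoxide and biliverdin, was low in both groups. It stood at 7.29, 6.90 and 7.88 CPM in the scrambled samples and at 7.46, 7.53 and 5.97 CPM with NFIC shRNA. All but NFIC shRNA replicate 3 lay within the range of the controls, and the log2 fold change was -0.074 (95% interval -0.34 to 0.20, edgeR adjusted p = 0.637).

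**Figure D3:**
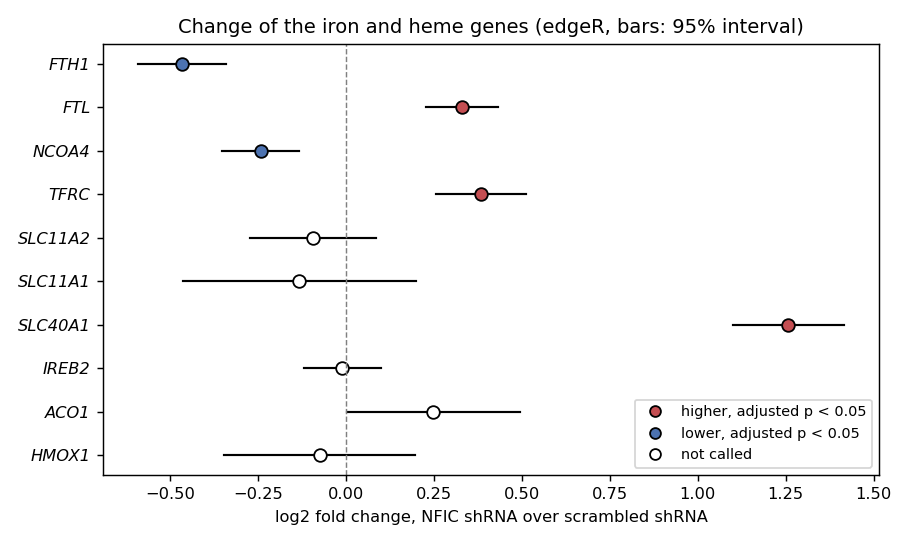
Log2 fold change of NFIC shRNA over scrambled shRNA (horizontal axis) for each of the 10 genes, with bars for the 95% interval of the edgeR fit (3 samples a group), red for higher, blue for lower and white for not called. SLC40A1 stands apart at 1.26, FTL and TFRC lie at 0.33 and 0.38, and FTH1 and NCOA4 at -0.47 and -0.24.

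Levels were compared between genes per length, in the deposited FPKM. In the scrambled samples FTL was highest at 1687 ± 45.9 FPKM (SD, n = 3), followed by FTH1 at 325 ± 25.3, NCOA4 at 48.9 ± 0.787, TFRC at 18.1 ± 0.866 and IREB2 at 15.2 ± 0.334. SLC40A1 at 6.30 ± 0.699, HMOX1 at 3.17 ± 0.219, SLC11A2 at 2.23 ± 0.204, ACO1 at 1.62 ± 0.180 and SLC11A1 at 0.462 ± 0.0231 FPKM came next, and no neighbors in that order overlapped. With NFIC shRNA the order changed at 1 place, where SLC40A1 at 15.3 ± 0.562 FPKM came level with IREB2 at 15.2 ± 0.854, the samples of both overlapping. SLC11A2 and ACO1 also overlapped there, at 2.11 ± 0.132 and 1.95 ± 0.315 FPKM. By its mean over all samples FTL ranked 23rd and FTH1 162nd of the 19182 tested genes. The rank of FTH1 is subject to the reads shared with BEST1. It also depends on the gene length used, 2004 bases for FTH1 against 1203 for its canonical transcript. The order of the other genes depends on their gene lengths in the same way.

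Promoters were read from the RefSeq table (GRCh38.p14, 250 bases before to 50 after each start), which held 13 promoters for 8 of the 10 members, FTH1 and HMOX1 being absent from it. A full palindromic NFI site (TTGGC and GCCAA set 5 bases apart, which reads the same on both strands) was in 0 of the 13. Of all 35116 promoters 0.0285% held it, so its absence from 13 was nearly certain and says nothing about the members. A single arm of that site (TTGGC or GCCAA, hence both strands, and contained in any full site) was in 6 of the 13, as against 45.6% of all. These letters in these windows do not say where NFIC binds.

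The wider pathway was read from 5 lists of 95 further iron and heme genes, of which 80 passed the low-count filter. Of these, 30 rose, 29 fell and 21 did not pass the test, with a median log2 fold change of 0.0048. The 59 called of 80 were a larger share than the 59.9% of all tested genes, a difference that was not tested. Among 13 tested transport genes 4 rose and 6 fell (list median 0.12). The 3 with the smallest p among those that fell were STEAP3, the ferrireductase of transferrin endosomes (29.3 ± 0.433 to 8.06 ± 0.750 CPM, log2 fold change -1.86), SLC39A14 (ZIP14), a carrier of iron not bound to transferrin (79.5 ± 3.25 to 36.4 ± 2.31 CPM, -1.13), and TFR2, the second transferrin receptor (3.47 ± 0.229 to 0.848 ± 0.0661 CPM, -2.02), with edgeR adjusted p of 3.23e-11, 1.82e-10 and 2.73e-07. The 3 among those that rose were SNX3, which returns TFRC from endosomes to the cell surface (log2 fold change 0.42), SLC39A8 (ZIP8), a relative of SLC39A14 (0.54), and CYBRD1, a ferrireductase (0.38). TFRC and TFR2 thus moved in opposite directions, as did SLC39A8 and SLC39A14. The hormone that degrades ferroportin, hepcidin (HAMP), had no entry in the table, as had LCN2, and STEAP4, HJV, TMPRSS6 and LTF were at 3 counts or fewer in every library.

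Of 13 genes of iron sensing and ferritin handling, all tested, 5 rose and 6 fell (list median -0.030). Over all tested genes 29.6% rose and 30.3% fell. FBXL5, the iron-sensing ubiquitin ligase subunit that marks IRP2 for degradation, rose from 79.3 ± 4.94 to 139 ± 1.31 CPM (log2 fold change 0.81, edgeR adjusted p = 1.66e-09), with 1620, 1932 and 1813 counts against 2898, 3205 and 3196. SKP1, a partner of FBXL5 in that ligase, rose too (0.43), as did TAX1BP1, which acts in ferritin delivery to lysosomes (0.55). The iron chaperones that load ferritin fell: PCBP1 went from 218 ± 3.02 to 131 ± 6.81 CPM (log2 fold change -0.74, edgeR adjusted p = 2.05e-09) and PCBP2 from 712 ± 26.9 to 454 ± 26.6 CPM (-0.65). PCBP4, of the same family, went from 18.2 ± 0.794 to 9.70 ± 2.44 CPM (-0.91). The groups did not overlap for any of these 6 genes, which were chosen by their small p. Among all tested genes the groups did not overlap for 65.2%.

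Of 28 tested genes of mitochondrial iron handling and of iron-sulfur cluster assembly in mitochondria and cytosol, 12 rose and 6 fell (list median 0.066). The shares over all tested genes were 29.6% higher and 30.3% lower. The scaffold protein gene ISCU rose from 31.1 ± 2.38 to 47.5 ± 2.33 CPM (log2 fold change 0.61), as did CIAO2A, a cytosolic assembly factor that acts on IRP1 (0.66), and ABCB8, a mitochondrial transporter (0.46). BOLA3, which passes clusters on to mitochondrial targets, fell from 10.7 ± 1.51 to 2.03 ± 0.425 CPM (-2.39, edgeR adjusted p = 2.00e-09), its 205, 305 and 220 counts becoming 35, 44 and 58. SLC25A37 (mitoferrin-1), the mitochondrial iron importer, fell by 0.46 and NUBP2 by 0.41 on the log2 scale.

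Of 12 tested heme synthesis genes 3 rose and 5 fell (list median -0.14), beside 29.6% and 30.3% of all tested genes. ALAS1, the first and rate-limiting enzyme outside red cells, rose from 83.4 ± 3.26 to 107.6 ± 2.89 CPM (log2 fold change 0.37, edgeR adjusted p = 1.33e-05), and the porphyrin transporter ABCB6 rose as well (0.57). ALAD, the next enzyme, rose by 0.19 (edgeR adjusted p = 0.0137), a call that was lost without scrambled replicate 3 (0.14, adjusted p = 0.106) and without NFIC shRNA replicate 1 (0.18, adjusted p = 0.0527). The later enzyme PPOX fell by 0.51 and the porphyrin import factor TMEM14C by 0.45 on the log2 scale. ALAS2, the erythroid form of the first enzyme, was at 3 counts or fewer in every library.

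Of 14 tested genes of heme breakdown and transport 6 rose and 6 fell (list median -0.14), beside 29.6% and 30.3% of all tested genes. SLC46A1, a folate carrier also described as a heme carrier, fell from 19.7 ± 0.935 to 9.48 ± 1.11 CPM (log2 fold change -1.06), and PGRMC2, a heme chaperone, fell by 0.30. HP (haptoglobin), which binds free hemoglobin, fell by 1.73 on the log2 scale from 32, 25 and 14 counts to 5, 6 and 10. NFE2L2 (NRF2), an activator of HMOX1 and of ferritin genes, rose from 101 ± 4.39 to 121 ± 3.82 CPM (log2 fold change 0.26, edgeR adjusted p = 4.10e-04). LRP1, the receptor for heme-bound hemopexin, rose by 0.29, and by 0.18 without NFIC shRNA replicate 2 (edgeR adjusted p = 0.0360). POR, which supplies electrons to heme oxygenase, rose by 0.26. In 13 list genes named here, exons overlap those of another gene with over 20% of their count in at least 1 library. These are STEAP3, FBXL5, SKP1, PCBP1, PCBP2, PCBP4, BOLA3, PPOX, ABCB6, LRP1, SLC46A1, POR and NFE2L2. Their levels and changes are therefore uncertain, as those of FTH1 are. For SKP1, PCBP2, PCBP4 and ABCB6 such a gene lies on the same strand, where the strand of a read does not tell the genes apart.

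**Figure D4:**
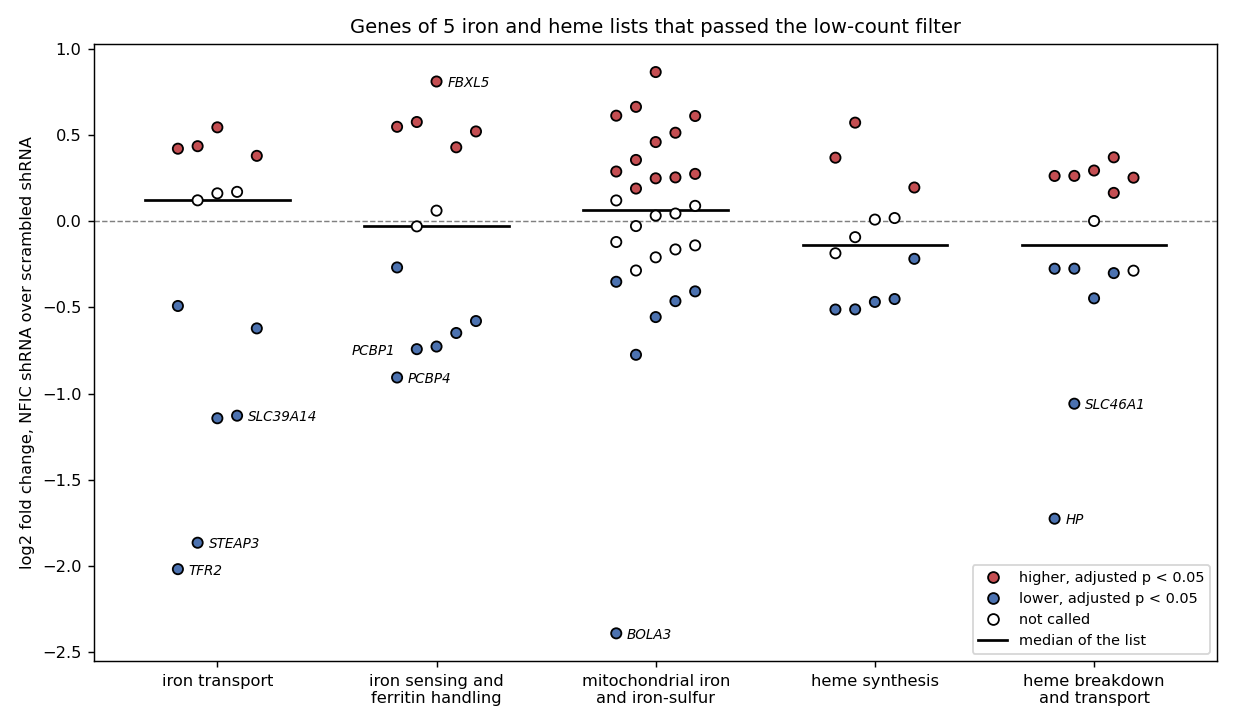
Log2 fold change of NFIC shRNA over scrambled shRNA (vertical axis) for the 80 tested genes of the 5 iron and heme lists, 1 point a gene, red for higher, blue for lower and white for not called, with a black line at each list's median. Medians lie between -0.14 and 0.12, with genes on both sides of 0 in every list and the largest changes at -2.39 (BOLA3), -2.02 (TFR2) and -1.86 (STEAP3).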

How the data were processed

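Bulk mRNA of 6 THP-1 samples (3 scrambled shRNA, 3 NFIC shRNA) was sequenced as paired ends. According to the study's methods and the submitters' processing notes, the authors trimmed reads (Trim Galore), mapped them to GRCh38 (STAR) and assigned them to genes of Ensembl release 96 (featureCounts); the deposited count is unnormalized. The authors also deposited a signal per gene (count divided by a DESeq2 size factor), FPKM values, and their own fold changes and p-values, which were not used. The strand setting of the counting is not given in the sources used here.

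Counts were tested with edgeR 4.0.16 (R 4.3.3; TMM, filterByExpr, robust quasi-likelihood fit, group only), with Benjamini-Hochberg adjustment over 19182 genes and a threshold of 0.05; intervals are at 95%. The deposited FPKM served for levels between genes. Ratios within a library were compared by an exact permutation test over samples. Sequences came from GENCODE 44 and RefSeq tables on GRCh38. Library totals were 20369543 to 24809720 counts, and intervals and floors cover the spread of samples or counting error only. Replicates of a group differed by more than sampling noise (chi-square per degree of freedom 1.99 to 7.91).

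On simulated counts with 200 changed genes for this comparison (18924 to 18952 genes, 3 draws), 82.7% of changes of log2 1 and 61.7% of log2 0.5 were recovered, with 5.33% to 10.5% false calls. In the data a far larger share, 59.9% of tested genes, was called, so these rates may not hold there. The members and lists were chosen with earlier results of these data known. Named were NFIC, all members and, from each list, the 3 higher and 3 lower genes with the smallest p among those called; BEST1 was added after its values were seen, and 1 gene the rule named is not reported here. Alternatives were DESeq2 1.42.0, other scalings and filters, a replicate block and libraries left out.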

Additional observations from a re-analysis of the deposited data

How the results depend on the processing

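Each count of calls was recomputed under 15 alternatives. The members called numbered 5 or 6, all genes called between 10176 and 11783, and list genes called between 53 and 61. FTH1, FTL, TFRC, SLC40A1 and NCOA4 were called in the same direction in the main setting and all 15 alternatives. The log2 fold change of IREB2, never called, changed sign with total-count scaling (0.0074), the DESeq2 Wald test (0.0054), without scrambled replicate 2 (0.0016) and without NFIC shRNA replicate 2 (0.036), and ran from -0.038 to 0.036 with 1 library left out. That of HMOX1, also never called, ran from -0.13 to 0.033 with 1 library left out, the value above 0 being that without NFIC shRNA replicate 3. ACO1 was called with no filter on low counts (0.25, adjusted p = 0.0444) and in 2 settings that left out 1 library. ALAD lost its call with upper-quartile scaling (0.14, adjusted p = 0.0690) and in 2 settings that left out 1 library. The cause was not tested. Upper-quartile scaling moved the median of all genes by -0.057 on the log2 scale and gave 43.2% of calls as higher, against 49.4%. Without 1 library at a time, the log2 difference of the FTH1 to FTL ratio ran from -0.85 to -0.75 and that of TFRC to FTH1 from 0.75 to 0.95.

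Samples with the same replicate number did not deviate together (correlations 0.056, -0.086 and -0.045). These numbers set C3 beside N2 and C4 beside N3. C3 and N3, which both stood apart on the second principal component (-18.0 and -20.5), were not compared. Pairing by the numbers in the sample names was therefore not tested. With a block on the replicate numbers, 10983 of all genes, 5 members and 58 list genes were called, and no member's call changed. Of the members, SLC11A1 and HMOX1 had the fewest counts. The overlap with BEST1 limits the level and the change of FTH1. The summed count, chosen after seeing the data, does not separate them, since both genes fell.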
